A study of Mus musculus with 12 samples.

Results

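The genes described here are 35 listed genes of differentiated skeletal muscle, out of 18193 genes measured in developing mouse limbs. They code for the thick and thin filaments of the sarcomere, the Z-disc with titin and desmin, the acetylcholine receptor of the muscle membrane, calcium handling in the fibre, and 3 further functions (adhesion, myosin assembly and energy). The members were listed by name. Each was read at a single probe set, the brightest over all arrays among those naming 1 gene, and all 35 were measured. The samples were pools of limbs from C57BL/6 embryos that were either Lmx1b -/- (KO) or Lmx1b +/+ (WT), taken at 11.5, 12.5 and 13.5 days post coitum (dpc), with 2 pools of different embryos, hybridised to 1 array each, in each of the 6 groups. Per the study's text both forelimbs and hindlimbs were collected. The tissue was the limb bud with its girdle at 11.5 and 12.5 dpc and the handplate, given elsewhere as zeugopod and autopod, at 13.5 dpc. The number of limbs in a pool of 12.5 dpc is 3 in the series text and 6 in the extraction protocol, and both sources give 6 for the other stages. The labels give the Lmx1b genotype for the whole embryo and name no cell type or driver, and they give no treatment for either genotype.

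Limb muscle arises from cells that leave the somites and enter the limb bud, where they multiply, begin to express the myogenic regulators, stop dividing and fuse into fibres. Differentiating cells switch on myosins, actins, troponins and the Z-disc proteins, which assemble into sarcomeres, the repeating units that shorten when calcium binds troponin. Lmx1b is the LIM homeodomain factor that gives the dorsal limb mesenchyme its identity. The muscle cells themselves come from the somites, so a change of muscle genes in whole limbs can concern cells other than those that express Lmx1b.

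Values are RMA expression values on the log2 scale, so a difference of 1 is a 2-fold difference. The level of 1 probe set says nothing about the level of another. In whole limbs, fewer muscle cells and less RNA per muscle cell cannot be told apart. Lmx1b was lower in KO pools, by 3.80 at 11.5 dpc and by 2.66 at 12.5 dpc (limma adjusted p = 0.00872 and 0.0476), and its difference of -2.05 at 13.5 dpc did not pass (adjusted p = 0.153). At 13.5 dpc Lmx1b lay at 7.48 and 8.88 in KO pools and at 10.27 and 10.19 in WT pools, so KO replicate 2 was between KO replicate 1 and the WT pools in the targeted gene, and every KO value of 13.5 dpc includes that pool. Per the labels each stage was scanned as its own series, with both genotypes in it. Stage therefore cannot be told apart from scan series, nor, for 13.5 dpc, from the part of the limb that was dissected. The hindlimb gene Pitx1 lay at 5.76 to 6.28 on the 8 arrays of 11.5 and 12.5 dpc and at 9.88 to 10.3 on the 4 arrays of 13.5 dpc. Stage cannot be told apart from the share of forelimbs and hindlimbs in the pools either. KO replicate 2 of 12.5 dpc stood apart from the other 11 arrays by the heat shock genes Hspa1a (9.36, against 4.80 to 5.71) and Hspa1b (9.81, against 6.48 to 7.47), which were chosen after their values were seen. Over the list of 9 stress genes the median difference of KO replicate 2 minus KO replicate 1 was 0.03, with 5 genes higher and 4 lower. KO replicate 2 of 13.5 dpc stood apart from the other arrays of its stage by Meis1, a gene of the proximal limb (9.46, against 7.76 in the other KO pool and 7.12 and 7.01 in WT pools). Of the 35 genes, 33 had a highest group mean above 6.28, the median of all values, and 26 lay above it on all 12 arrays. The medians of the 12 genes of the heart list were 4.80 to 5.15 per array. Of these, Myl7, Myh6, Nppa, Myl2 and Tbx20 lay below 5 on every array. Myl3 lay at 6.60 to 6.92, Mybpc3 at 5.86 to 6.93 and Nkx2-5 at 5.82 to 6.49. Levels of different probe sets do not settle which kind of muscle a gene's RNA came from.

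Promoters are shown for the 4 genes with the largest rise in WT limbs that had a RefSeq entry and a motif, because the stage change of such genes is the main pattern described here. RefSeq (assembly GRCm38.p6) gave a window of 300 bases, 250 before the transcript start and 50 after, for 29 of the 35. The other 6 were Tnnt3, Tnni2, Neb, Tcap, Xirp1 and Chrnd. Capitals mark the motifs, searched on both strands: the E-boxes CAGCTG and CACCTG, which myogenic regulators can bind, the MCAT element CATTCC, the MEF2 motif, the CArG box of serum response factor, and TATAAA. The E-box CACCTG of Ttn stands in the reverse direction.
Ttn (chr2:76982498-76982797, minus strand): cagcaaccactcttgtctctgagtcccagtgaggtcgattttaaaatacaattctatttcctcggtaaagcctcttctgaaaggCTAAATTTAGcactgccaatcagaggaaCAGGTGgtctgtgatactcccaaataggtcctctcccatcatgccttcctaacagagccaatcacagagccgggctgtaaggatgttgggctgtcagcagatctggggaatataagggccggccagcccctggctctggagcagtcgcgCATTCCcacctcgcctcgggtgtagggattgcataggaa
Myh8 (chr11:67276874-67277173, plus strand): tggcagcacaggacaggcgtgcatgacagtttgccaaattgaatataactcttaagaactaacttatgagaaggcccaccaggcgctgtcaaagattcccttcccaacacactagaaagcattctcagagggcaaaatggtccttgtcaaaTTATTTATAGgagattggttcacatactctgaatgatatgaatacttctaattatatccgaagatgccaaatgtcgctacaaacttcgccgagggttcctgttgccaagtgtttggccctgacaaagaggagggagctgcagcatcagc
Myh3 (chr11:67078050-67078349, plus strand): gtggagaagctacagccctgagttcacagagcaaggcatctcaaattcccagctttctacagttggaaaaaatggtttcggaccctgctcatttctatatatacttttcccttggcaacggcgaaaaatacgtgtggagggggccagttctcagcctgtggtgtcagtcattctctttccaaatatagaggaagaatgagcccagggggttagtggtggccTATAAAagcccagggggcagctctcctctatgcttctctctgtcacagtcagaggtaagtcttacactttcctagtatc
Mylpf (chr7:127211358-127211657, plus strand): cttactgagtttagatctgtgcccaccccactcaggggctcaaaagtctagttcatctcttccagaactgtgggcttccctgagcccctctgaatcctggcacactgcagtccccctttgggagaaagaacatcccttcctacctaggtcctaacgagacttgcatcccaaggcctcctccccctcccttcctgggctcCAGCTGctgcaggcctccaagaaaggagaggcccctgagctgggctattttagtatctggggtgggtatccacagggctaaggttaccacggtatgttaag

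In Ttn the MEF2 motif began at -166 and the E-box at -138 from the start. In Myh8 a MEF2 motif at -99 overlapped a reversed TATAAA at -96. Myh3 held TATAAA at -29, and Mylpf held CAGCTG at -51. CAGCTG occurred in 12 of the 29 windows (41.4%), against 16.3% of 32851 windows of all RefSeq genes. The CArG box occurred in 4 (13.8%, against 1.63%), in Acta1, Actc1, Ldb3 and Myom1. MEF2 motifs occurred in 3 (10.3%, against 3.19%), in Ttn, Myh8 and Casq2. TATAAA occurred in 9 (31%, against 13.6%), CATTCC in 8 (27.6%, against 14.7%) and CACCTG in 8 (27.6%, against 20.2%). None of the 6 motifs lay in the windows of Myl4, Actn2, Ryr1 and Cdh15. These are matches of letters, and binding was not measured.

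From 11.5 to 12.5 dpc, 14 of the 35 genes rose in WT limbs and 1 fell, where 6.67% of all genes rose and 13.1% fell (limma, Benjamini-Hochberg adjusted p under 0.05 over 18193 genes). The 14 were Ttn, Myh3, Mylpf, Acta1, Tnnt2, Neb, Tnnc2, Tnnc1, Myl1, Tnni1, Actn2, Tnnt3, Actc1 and Xirp1, with log2 changes from 2.50 to 0.87, and Ckm was the gene that fell. The median change of the 35 genes was 1.13, against -0.03 over all genes. In 30 of the 35 both WT arrays of 12.5 dpc lay above both of 11.5 dpc, as in 27.9% of all genes. In KO limbs 5 of the 35 rose (Ttn, Neb, Myh3, Mylpf and Tnnt2), where 6.22% of all genes rose, and the median change was 0.90, against -0.05 over all genes. Both KO arrays of 12.5 dpc lay above both of 11.5 dpc in 13 of the 35, against 23.4% of all genes. In the heat map of the 12 arrays, KO replicate 2 of 12.5 dpc is the array of that stage that lacks most of the rise. In the other direction, both arrays of 12.5 dpc lay below both of 11.5 dpc for 2 members in KO limbs (35.6% of all genes) and for 2 in WT limbs (37.5%). In KO limbs 0 members fell, where 10.6% of all genes fell.

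The spread of a gene was estimated over all 6 groups, so the gap between the KO pools of 12.5 dpc enters the tests of WT changes too. Leaving out an array changes the spread of every gene. For stage changes, the share of all genes called without an array is not given here or below. Those counts of members are therefore not read as particular to the muscle genes. The number of calls in WT limbs, 15 in both directions, depended on single arrays. It was 1 without WT 11.5 dpc replicate 1 or replicate 2, 3 without WT 12.5 dpc replicate 1, 2 without WT 12.5 dpc replicate 2, 9 without either WT array of 13.5 dpc, and 30 without either KO array of 12.5 dpc. Of the 15, Ttn alone passed under all 21 alternatives tried. The 5 calls in KO limbs became 30 without KO 12.5 dpc replicate 2, 3 without KO 12.5 dpc replicate 1, 1 without KO 11.5 dpc replicate 1, 0 without KO 11.5 dpc replicate 2, and 3 without any 1 WT array of 11.5 or 13.5 dpc.

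**Figure D1:**
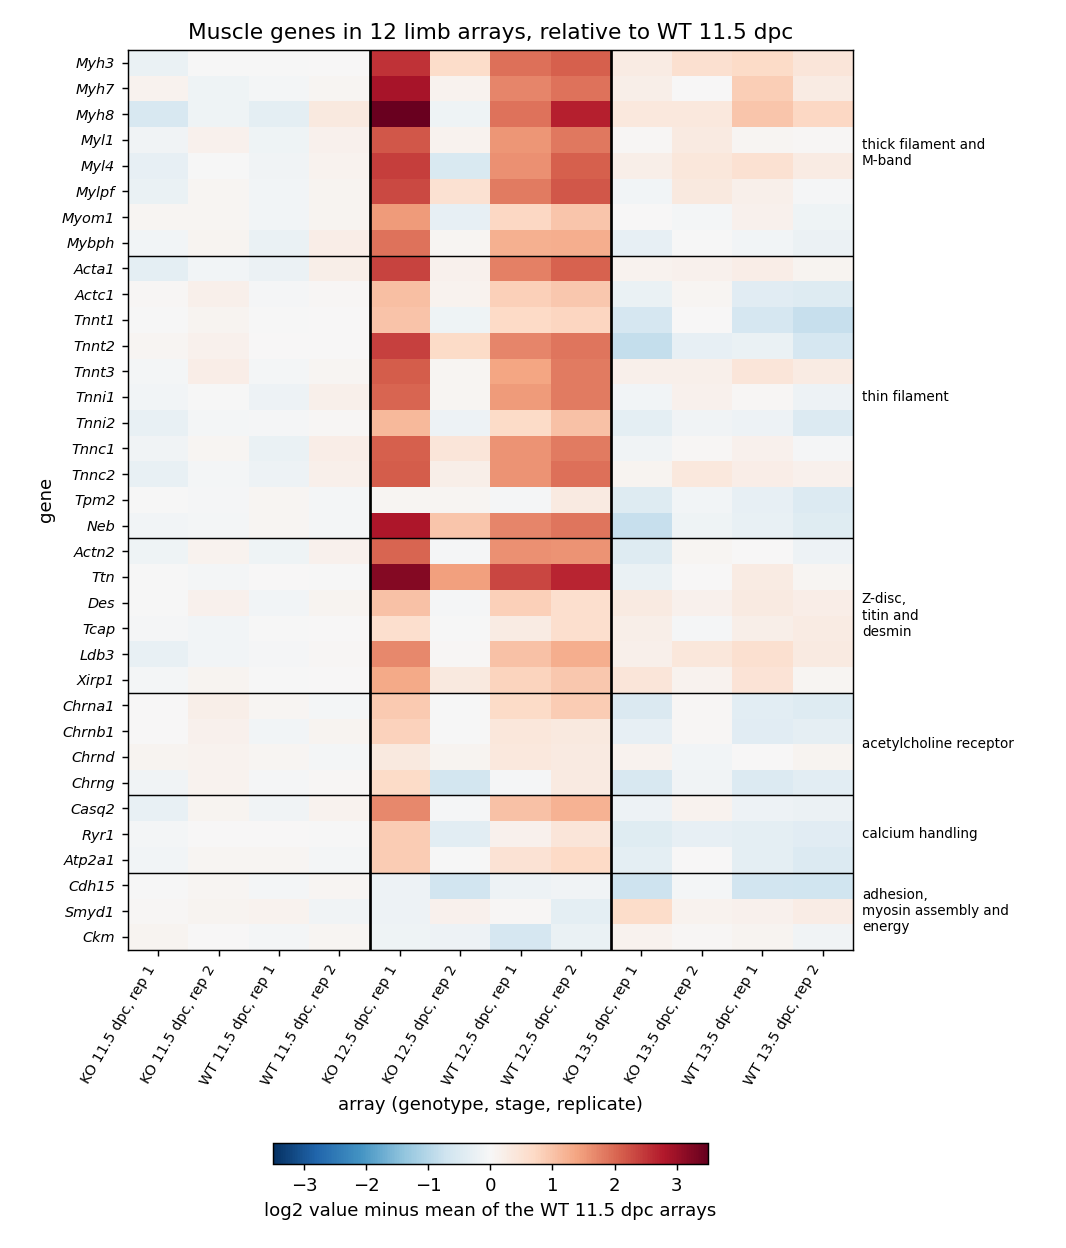
Log2 value of each of the 35 muscle genes (rows, by role) on each of the 12 arrays (columns, KO left of WT within a stage), minus the mean of the WT 11.5 dpc arrays, with red above and blue below it. Both WT arrays and KO replicate 1 of 12.5 dpc are red for most genes, whereas KO replicate 2 of 12.5 dpc is close to the 11.5 dpc arrays, with Ttn and Neb the reddest there.

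Of the 8 thick filament and M-band genes, 3 rose in WT limbs from 11.5 to 12.5 dpc, Myh3, Mylpf and Myl1. Myh8, the perinatal myosin heavy chain, lay at 4.71 and 5.12 in KO and 4.93 and 5.59 in WT pools at 11.5 dpc, at 8.71 and 5.11 in KO and 7.17 and 7.98 in WT pools at 12.5 dpc, and at 5.64 and 5.64 in KO and 6.22 and 5.99 in WT pools at 13.5 dpc. Myh3, the embryonic myosin heavy chain, lay at 8.68 and 8.88 in KO and 8.89 and 8.91 in WT pools at 11.5 dpc, at 11.44 and 9.54 in KO and 10.83 and 11 in WT pools at 12.5 dpc, and at 9.18 and 9.45 in KO and 9.57 and 9.32 in WT pools at 13.5 dpc. The 2 WT arrays of 12.5 dpc were above all arrays of 11.5 and 13.5 dpc for both genes, whereas the KO pools of 12.5 dpc gave the highest value and, for Myh8, a value within the range of 11.5 dpc. Mylpf, the regulatory light chain of fast fibres, lay at 8.81 and 9.09 in KO and 8.94 and 9.12 in WT pools at 11.5 dpc, at 11.35 and 9.57 in KO and 10.86 and 11.20 in WT pools at 12.5 dpc, and at 8.93 and 9.38 in KO and 9.22 and 8.99 in WT pools at 13.5 dpc. Myl4, the essential light chain of embryonic muscle and atrium, lay at 7.80 and 8.10 in KO and 7.99 and 8.21 in WT pools at 11.5 dpc, at 10.51 and 7.57 in KO and 9.70 and 10.20 in WT pools at 12.5 dpc, and at 8.31 and 8.51 in KO and 8.64 and 8.39 in WT pools at 13.5 dpc. Myh7, the slow myosin heavy chain, lay at 5.66 and 5.39 in KO and 5.47 and 5.61 in WT pools at 11.5 dpc, at 8.43 and 5.66 in KO and 7.24 and 7.45 in WT pools at 12.5 dpc, and at 5.75 and 5.55 in KO and 6.41 and 5.82 in WT pools at 13.5 dpc. Myl1, the essential light chain of fast fibres, lay at 9.66 and 9.93 in KO and 9.64 and 9.94 in WT pools at 11.5 dpc, at 11.96 and 9.92 in KO and 11.33 and 11.63 in WT pools at 12.5 dpc, and at 9.83 and 10.11 in KO and 9.86 and 9.83 in WT pools at 13.5 dpc. For Myh7, Myl1 and Myl4 alike KO replicate 1 of 12.5 dpc was the highest array. The KO replicate 2 value of Myl4 at 12.5 dpc was the lowest of all 12. In WT limbs from 11.5 to 12.5 dpc, Myh3 rose by 2.01 ± 0.44 (SE, adjusted p = 0.0118), 4.04-fold, Mylpf by 2.00 ± 0.43 (adjusted p = 0.0114) and Myl1 by 1.69 ± 0.47 (adjusted p = 0.0328). The changes of Myh8 (2.31 ± 0.84), Myl4 (1.86 ± 0.67), Myh7 (1.80 ± 0.64), Mybph (myosin binding protein H, 1.26 ± 0.43) and Myom1 (myomesin, 0.85 ± 0.41) did not pass (adjusted p from 0.0655 to 0.172). All 8 genes of this group had a positive change in both genotypes, 3 passed in WT limbs, and 2 passed in KO limbs, Myh3 (1.71 ± 0.44) and Mylpf (1.51 ± 0.43).

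Thin filament genes gave the largest share of calls, 8 of 11 in WT limbs. Acta1, skeletal muscle actin, lay at 8.57 and 8.82 in KO and 8.72 and 9.11 in WT pools at 11.5 dpc, at 11.29 and 9.07 in KO and 10.69 and 10.97 in WT pools at 12.5 dpc, and at 9.05 and 9.07 in KO and 9.16 and 9.02 in WT pools at 13.5 dpc. Tnnt2, the troponin T of heart and embryonic skeletal muscle, lay at 7.80 and 7.88 in KO and 7.74 and 7.74 in WT pools at 11.5 dpc, at 10.12 and 8.42 in KO and 9.46 and 9.62 in WT pools at 12.5 dpc, and at 6.91 and 7.46 in KO and 7.5 and 7.16 in WT pools at 13.5 dpc. For both genes the WT arrays of 12.5 dpc lay above every array of the other stages. Neb, nebulin, which spans the thin filament, lay at 5.97 and 5.99 in KO and 6.15 and 5.99 in WT pools at 11.5 dpc, at 8.89 and 7.04 in KO and 7.77 and 7.94 in WT pools at 12.5 dpc, and at 5.26 and 5.91 in KO and 5.81 and 5.64 in WT pools at 13.5 dpc. Tnnc2, the troponin C of fast fibres, lay at 8.21 and 8.42 in KO and 8.29 and 8.67 in WT pools at 11.5 dpc, at 10.61 and 8.68 in KO and 10.05 and 10.41 in WT pools at 12.5 dpc, and at 8.58 and 8.84 in KO and 8.70 and 8.63 in WT pools at 13.5 dpc. For Neb and Tnnt2 both KO arrays of 12.5 dpc were above all arrays of 11.5 dpc. The same held narrowly for Tnnc2 (8.68, against 8.67), whereas KO replicate 2 of Acta1 lay among the arrays of 11.5 dpc. The WT changes were 1.91 ± 0.51 for Acta1 (adjusted p = 0.0267), 1.80 ± 0.41 for Tnnt2 (0.0144), 1.79 ± 0.45 for Neb (0.0204) and 1.75 ± 0.46 for Tnnc2 (0.0242). The slow troponins Tnnc1 (1.69) and Tnni1 (1.65), the fast troponin T Tnnt3 (1.59) and Actc1 (0.89), the actin of heart and early skeletal muscle, rose as well. Fast troponin I, Tnni2 (0.86), slow troponin T, Tnnt1 (0.72), and beta-tropomyosin, Tpm2 (0.14), did not pass (adjusted p from 0.0886 to 0.516). In KO limbs Neb rose by 1.99 ± 0.45 (adjusted p = 0.015) and Tnnt2 by 1.43 ± 0.41 (adjusted p = 0.0396).

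Ttn, titin, the spring that joins Z-disc and M-band, had the largest WT change of the 35 genes. It lay at 7.21 and 7.16 in KO and 7.23 and 7.20 in WT pools at 11.5 dpc, at 10.44 and 8.65 in KO and 9.56 and 9.87 in WT pools at 12.5 dpc, and at 6.97 and 7.22 in KO and 7.49 and 7.28 in WT pools at 13.5 dpc. The 4 arrays of 12.5 dpc were above the other 8, and KO replicate 2 was the lowest of the 4. Ttn rose by 2.36 ± 0.42 in KO limbs (adjusted p = 0.0059) and by 2.50 ± 0.42 in WT limbs (adjusted p = 0.00393), 5.65-fold. Actn2, the alpha-actinin that cross-links actin in the Z-disc, lay at 7.87 and 8.14 in KO and 7.86 and 8.16 in WT pools at 11.5 dpc, at 10.06 and 7.96 in KO and 9.62 and 9.57 in WT pools at 12.5 dpc, and at 7.57 and 8.08 in KO and 8.03 and 7.82 in WT pools at 13.5 dpc. Ldb3, a Z-disc scaffold, lay at 5.12 and 5.27 in KO and 5.34 and 5.41 in WT pools at 11.5 dpc, at 7.07 and 5.42 in KO and 6.39 and 6.64 in WT pools at 12.5 dpc, and at 5.55 and 5.76 in KO and 5.93 and 5.70 in WT pools at 13.5 dpc. Xirp1, an actin-binding protein of the fibre ends, lay at 5.02 and 5.18 in KO and 5.06 and 5.11 in WT pools at 11.5 dpc, at 6.40 and 5.42 in KO and 5.87 and 6.04 in WT pools at 12.5 dpc, and at 5.5 and 5.20 in KO and 5.56 and 5.16 in WT pools at 13.5 dpc. For Actn2, Ldb3 and Xirp1 the WT arrays of 12.5 dpc were the highest after KO replicate 1. Actn2 rose by 1.59 ± 0.49 in WT limbs (adjusted p = 0.047) and Xirp1 by 0.87 ± 0.26 (adjusted p = 0.0409). Xirp1 was dim, with a highest group mean of 5.96. Ldb3 (1.14), the intermediate filament desmin, Des (0.72), and the titin cap, Tcap (0.44), did not pass in WT limbs (adjusted p from 0.0628 to 0.108).

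Of the 4 acetylcholine receptor subunits and the 3 calcium genes, 0 of 7 passed between 11.5 and 12.5 dpc in either genotype (limma). At an unadjusted p under 0.05, 1 of the 7 did so in KO limbs and 4 in WT limbs, against 31% and 34.6% of all genes. Chrna1, the subunit that binds acetylcholine, lay at 7.79 and 7.98 in KO and 7.85 and 7.72 in WT pools at 11.5 dpc, at 8.70 and 7.78 in KO and 8.46 and 8.66 in WT pools at 12.5 dpc, and at 7.29 and 7.83 in KO and 7.41 and 7.33 in WT pools at 13.5 dpc. Chrnb1, the beta subunit, lay at 6.64 and 6.77 in KO and 6.52 and 6.73 in WT pools at 11.5 dpc, at 7.44 and 6.60 in KO and 7.03 and 6.96 in WT pools at 12.5 dpc, and at 6.33 and 6.66 in KO and 6.23 and 6.32 in WT pools at 13.5 dpc. For both genes the WT arrays of 12.5 dpc lay above the WT arrays of the other stages, and the 2 KO arrays of 12.5 dpc lay apart. Chrng, the subunit of the fetal receptor, lay at 7.38 and 7.63 in KO and 7.46 and 7.56 in WT pools at 11.5 dpc, at 8.18 and 6.88 in KO and 7.48 and 7.83 in WT pools at 12.5 dpc, and at 6.94 and 7.40 in KO and 7.02 and 7.13 in WT pools at 13.5 dpc. Chrnd, the delta subunit, lay at 6.77 and 6.79 in KO and 6.73 and 6.60 in WT pools at 11.5 dpc, at 7 and 6.76 in KO and 7.04 and 6.99 in WT pools at 12.5 dpc, and at 6.80 and 6.56 in KO and 6.68 and 6.75 in WT pools at 13.5 dpc. The WT changes were 0.78 ± 0.26 for Chrna1, 0.37 ± 0.22 for Chrnb1, 0.35 ± 0.11 for Chrnd and 0.15 ± 0.33 for Chrng (adjusted p from 0.0525 to 0.795). Chrna1 was above all 11.5 dpc arrays in both WT arrays of 12.5 dpc, whereas 1 of the 2 WT arrays of Chrng lay among them. Casq2, which stores calcium in the sarcoplasmic reticulum, lay at 7.44 and 7.78 in KO and 7.58 and 7.80 in WT pools at 11.5 dpc, at 9.36 and 7.66 in KO and 8.72 and 8.92 in WT pools at 12.5 dpc, and at 7.52 and 7.81 in KO and 7.5 and 7.49 in WT pools at 13.5 dpc. Atp2a1, the calcium pump of the reticulum, lay at 7.91 and 8.07 in KO and 8.05 and 7.94 in WT pools at 11.5 dpc, at 8.89 and 7.98 in KO and 8.5 and 8.70 in WT pools at 12.5 dpc, and at 7.66 and 8 in KO and 7.66 and 7.51 in WT pools at 13.5 dpc. Both WT arrays of 12.5 dpc were above the WT arrays of the other stages for both genes. The WT change of Casq2 was 1.13 ± 0.40, that of Atp2a1 0.60 ± 0.24, and that of the calcium release channel gene Ryr1 0.30 ± 0.29 (adjusted p from 0.0748 to 0.515).

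Cdh15, Smyd1 and Ckm had negative changes from 11.5 to 12.5 dpc in both genotypes. Cdh15, a cadherin of myoblasts and satellite cells, lay at 8.29 and 8.38 in KO and 8.22 and 8.38 in WT pools at 11.5 dpc, at 8.13 and 7.64 in KO and 8.13 and 8.17 in WT pools at 12.5 dpc, and at 7.58 and 8.24 in KO and 7.63 and 7.60 in WT pools at 13.5 dpc. Ckm, muscle creatine kinase, lay at 6.28 and 6.19 in KO and 6.11 and 6.25 in WT pools at 11.5 dpc, at 6.04 and 6.01 in KO and 5.58 and 5.96 in WT pools at 12.5 dpc, and at 6.31 and 6.23 in KO and 6.27 and 6.06 in WT pools at 13.5 dpc. Ckm was below or near the median of all values throughout, and it fell by 0.41 ± 0.13 in WT limbs from 11.5 to 12.5 dpc (adjusted p = 0.0487). With limma adjustment over all probe sets this fall did not pass (adjusted p = 0.0577). The other Ckm probe set, of similar level, had a WT change of 0.04 (adjusted p = 0.878, over all probe sets). Smyd1, a methyltransferase needed for myosin assembly, stayed between 6.78 and 7.76 on its brightest probe set, with a WT change of -0.15 ± 0.19 (adjusted p = 0.633). Another Smyd1 probe set lay at 8.75 and 6.19 in KO and 6.93 and 8.25 in WT pools at 12.5 dpc. There KO replicate 1 was above and KO replicate 2 below both WT arrays, unlike on the brightest probe set. The probe sets of Tpm2 disagreed as well, and 1 of them had a WT change of 1.30 (adjusted p = 0.0105, over all probe sets). Across the 11 genes with several probe sets, 23 of 25 further probe sets had a positive WT change and 6 passed. Of the 25, 9 were brighter than the overall median, and all 9 were positive.

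In the handplates of 13.5 dpc, against the limbs of 12.5 dpc, 20 of the 35 genes fell in WT pools and Ckm rose by 0.40, where 10.8% of all genes fell and 14.5% rose. The median change was -1.25, against 0.01 over all genes. Thin filament genes fell in 10 of 11 cases, all but Tnnt3 (-1.25, adjusted p = 0.0814). The limb-type genes moved with this step: Pitx1 rose by 4.30 in KO and 4.18 in WT pools (adjusted p = 5.95e-07 and 7.94e-07), and Tbx5, a forelimb gene, fell by 1.36 in KO and 1.49 in WT pools (adjusted p = 0.00234 and 9.72e-04). The part of limb type in the muscle values was not tested. Tnnt3 and Xirp1 (-0.60, adjusted p = 0.119), which had risen from 11.5 to 12.5 dpc, were not called here. The largest falls were those of Ttn (-2.33 ± 0.42, adjusted p = 0.00376), Tnnt2 (-2.21 ± 0.41, adjusted p = 0.00453) and Neb (-2.13 ± 0.45, adjusted p = 0.00748). Of the receptor subunits, Chrna1 (-1.19) and Chrnb1 (-0.72) fell, and of the calcium genes Casq2 (-1.32) and Atp2a1 (-1.01). In KO pools 4 fell, Ttn (-2.44), Neb (-2.38), Tnnt2 (-2.08) and Tnnc1 (-1.30), where 8.22% of all genes fell, and 0 rose, where 10.4% did. The KO median change was -0.70, against 0.04 over all genes. Both arrays of 13.5 dpc lay below both of 12.5 dpc for 10 members in KO pools (22.7% of all genes) and for 33 in WT pools (33.1%), and above them for 1 member in KO pools (29.6%) and 2 in WT pools (35%). The 13.5 dpc mean was above the 11.5 dpc mean for 17 of the 35 genes in KO pools and for 18 in WT pools, with median differences of -0.02 and 0.01. Myh8 kept the largest excess over 11.5 dpc, 0.73 in KO and 0.85 in WT pools, whereas Cdh15 was among the lowest, at -0.42 in KO and -0.69 in WT pools. The 21 WT calls became 33 without either KO array of 12.5 dpc, 10 without WT 12.5 dpc replicate 1, 7 without WT 12.5 dpc replicate 2, 7 without WT 13.5 dpc replicate 1 and 3 without WT 13.5 dpc replicate 2. The 4 KO calls became 30 without KO 12.5 dpc replicate 2 and 1 without KO 13.5 dpc replicate 1.

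**Figure D2:**
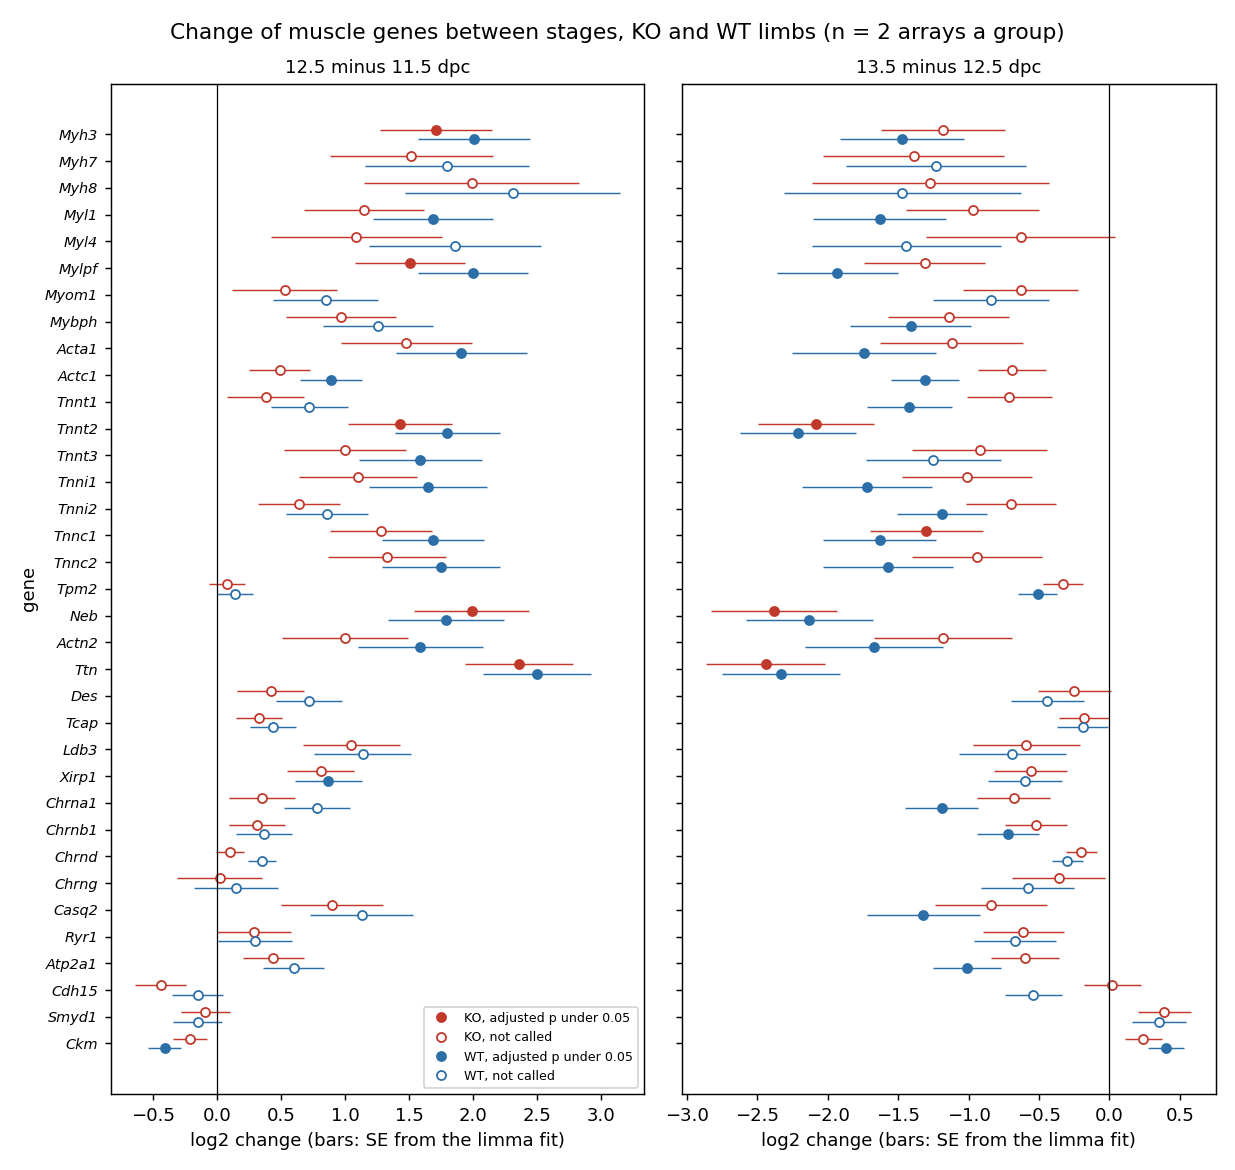
Log2 change of each of the 35 muscle genes from 11.5 to 12.5 dpc (left) and from 12.5 to 13.5 dpc (right) in KO pools (red, above) and WT pools (blue, below), with the SE of the limma fit and filled points for adjusted p under 0.05. Most points are right of 0 in the left panel and left of 0 in the right one, and fewer KO than WT points are filled (5 against 15 and 4 against 21).

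No member passed the test between genotypes at any stage. The spread in these tests is shared by all stages, so at 11.5 and 13.5 dpc too it includes the gap between the KO pools of 12.5 dpc. At each of 11.5, 12.5 and 13.5 dpc and for the mean of the stages, 0 of the 35 genes passed in either direction (limma), and 0 had an unadjusted p under 0.05, where 1.64%, 10.9%, 5.9% and 6.87% of all genes did. Over all genes, KO pools were called lower for 0.0165%, 0.0275%, 0.0275% and 0.187% and called higher for 0%, 0.0110%, 0% and 0.0165%, in the same order. The smallest adjusted p among the members was 1 at 11.5 dpc, 0.51 at 12.5 dpc, 0.943 at 13.5 dpc and 0.798 for the mean. The median KO minus WT difference was 0.00 at 11.5 dpc, -0.28 at 12.5 dpc, where 31 of the 35 differences were negative, and -0.01 at 13.5 dpc, against medians of all genes from -0.02 to -0.01. Both KO arrays lay above both WT arrays for 2 members at 11.5 dpc, 1 at 12.5 dpc and 4 at 13.5 dpc (12.8%, 15% and 11.6% of all genes), and below them for 5, 0 and 4 members (26.8%, 19.3% and 22.3%). The extremes at 12.5 dpc were Myl4 (-0.91 ± 0.67) and Ckm (0.26 ± 0.13). At 13.5 dpc they were Myh8 (-0.47 ± 0.84) and Tnnt1 (0.40 ± 0.30). The change of the KO effect between stages was tested directly and passed for 0 members in each of the 3 pairs of stages (smallest adjusted p of 0.633), and for 0% of all genes.

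At 12.5 dpc the 2 KO pools lay on opposite sides of the WT pools. In 29 of the 35 genes both WT arrays lay between a higher KO replicate 1 and a lower KO replicate 2, as they did in 13.4% of all genes. All 8 thick filament genes, 10 of 11 thin filament genes, 5 of 6 Z-disc genes, 3 of 4 receptor subunits and all 3 calcium genes did so. Tpm2, Tcap, Chrnd, Cdh15, Smyd1 and Ckm did not on their brightest probe sets. On the other probe sets of Tpm2 the WT arrays did lie between the KO arrays. One of them lay at 10.24 and 9.22 in KO and 9.8 and 10.01 in WT pools. Against the WT mean, the median of the 35 genes was 0.44 in KO replicate 1 and -1.06 in KO replicate 2. The median difference of KO replicate 2 minus KO replicate 1 was -1.67, and the differences ran from -3.61 for Myh8, 12.2-fold, to 0.35 for Smyd1. Myl4 differed by -2.94 and Myh7 by -2.77, whereas Chrnd differed by -0.24. In 24 of the 35 genes (68.6%) the difference was below -1, against 305 of 18193 genes (1.68%), and 11 members were among the 50 genes lowest in KO replicate 2 against KO replicate 1. The root mean square of the difference between the pools of a group over the members was 1.676 in KO limbs of 12.5 dpc and lay between 0.193 and 0.345 in the other 5 groups.

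**Figure D3:**
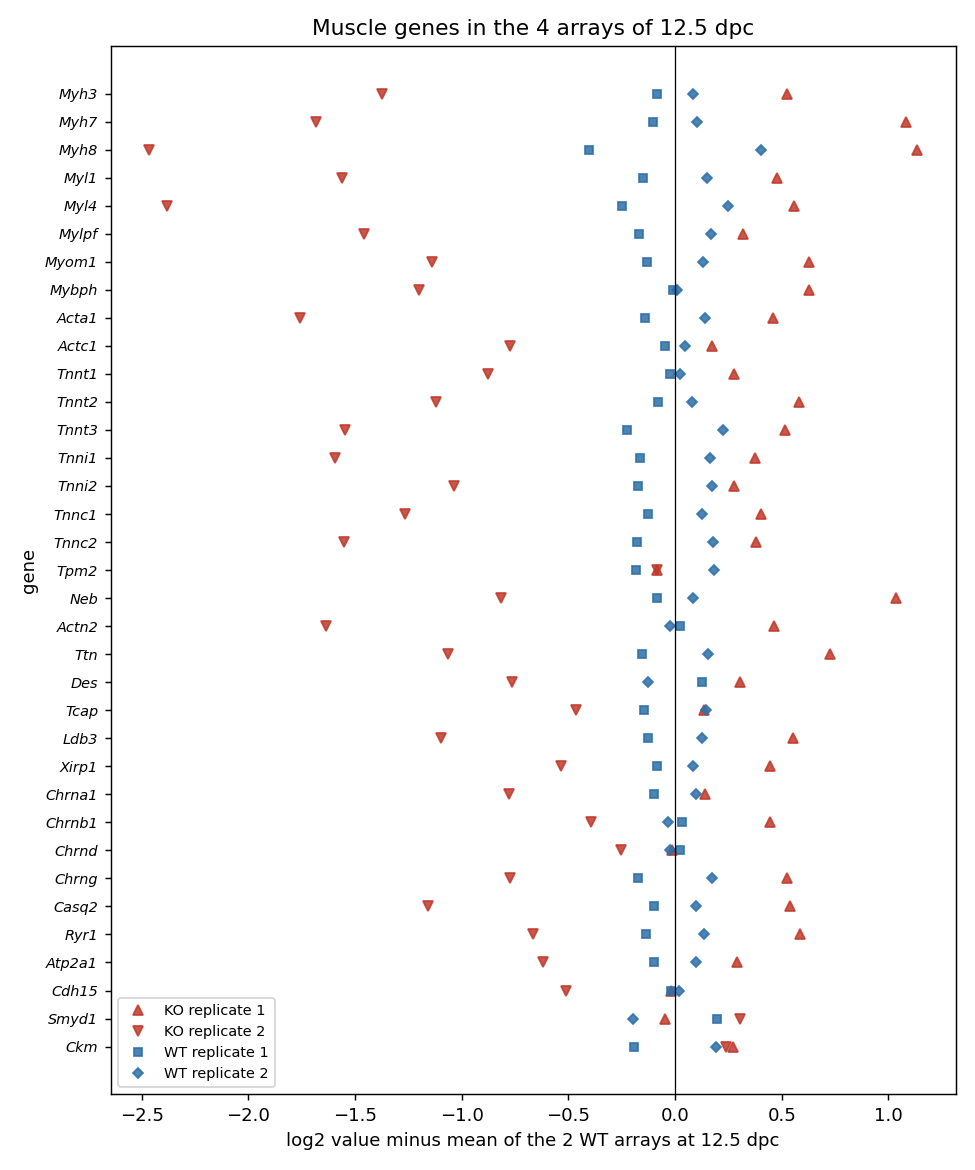
Log2 value of each of the 35 muscle genes on the 4 arrays of 12.5 dpc, minus the mean of the 2 WT arrays (red triangles: KO replicate 1 up, KO replicate 2 down; blue: WT). KO replicate 1 lies right of both WT arrays in 30 of the 35 genes (34.9% of all genes) and KO replicate 2 left of them in 32 (41.8%).

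The call between genotypes at 12.5 dpc depended on which KO pool was kept, with the lone array assumed to vary like the other groups. Without KO replicate 1, 22 of the 35 genes were lower in KO limbs, as were 2.3% of all genes, and 31 had an unadjusted p under 0.05, against 18% of all genes, with Myh8 at -2.47 ± 0.33 (adjusted p = 0.00528), Myl4 at -2.38 ± 0.22 (0.000896) and Acta1 at -1.76 ± 0.18 (0.00178). Without KO replicate 2, 0 members passed (limma) and 18 had an unadjusted p under 0.05, against 14.2% of all genes, where 0.126% of all genes were called higher and 0.077% lower, and 31 of the 35 differences were positive, such as Myh8 at 1.14 ± 0.33 (adjusted p = 0.168), Myh7 at 1.09 ± 0.22 (0.0836) and Neb at 1.03 ± 0.22 (0.0898). For the mean of the stages, 15 members were lower without KO 12.5 dpc replicate 1, as were 2.13% of all genes.

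KO replicate 2 of 12.5 dpc was set against the arrays of 11.5 dpc. It lay within the range of the 4 arrays of 11.5 dpc for 18 of the 35, above it for 10 and below it for 7 (51.4%, 28.6% and 20%), against 26%, 28.4% and 45.6% of all genes, at a median of 0.03 above their mean. Of the 18 genes whose WT mean rose by 1 or more, KO replicate 1 reached 116% to 160% of the WT rise over the WT mean of 11.5 dpc, with a median of 130%. KO replicate 2 reached a median of 7%, from -28% in Myl4 to 57% in Ttn. Ttn (57%), Neb (54%), Tnnt2 (38%), Myh3 (32%) and Mylpf (27%) kept the largest shares there, and Myl4, Myh8 (-7%), Actn2 (-3%) and Casq2 (-3%) had none. Genes with a larger WT rise also had a larger gap between the KO pools (r = -0.86 and rho = -0.85 across the 35 genes, against -0.18 and -0.07 across all genes). The WT rise and the KO gap use different arrays but the same probe sets, whose brightness limits both, and genes are not independent replicates.

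**Figure D4:**
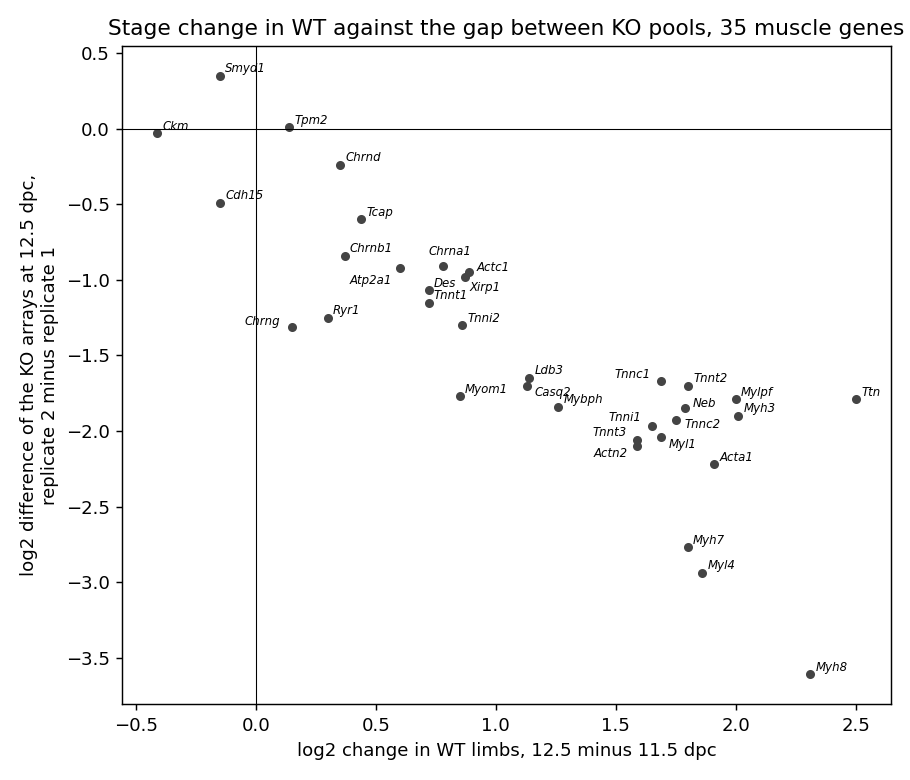
Log2 change in WT limbs from 11.5 to 12.5 dpc (x axis) against the log2 difference of KO replicate 2 minus KO replicate 1 at 12.5 dpc (y axis), 1 point for each of the 35 muscle genes. Points fall to the lower right, from Ckm and Smyd1 near 0 to Myh8 at 2.31 and -3.61.

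Other gene lists moved between the same 2 KO pools. Of 82 further muscle genes, 21 (25.6%) were lower by over 1 in KO replicate 2, led by Myom2 (-3.19), an M-band gene. The median was -0.66 for further sarcomere genes (25 of 29 lower) and -0.64 for muscle energy genes (10 of 10). It was -0.32 for muscle membrane and fusion genes (10 of 11) and -0.10 for excitation and synapse genes of muscle (13 of 16). The myogenic regulators were lower in 14 of 16 cases, at a median of -0.46. Myog, which drives differentiation, lay at 11.07 and 10 in KO and 10.74 and 10.89 in WT pools, and Pax7, of muscle progenitors, at 6.89 and 5.56 in KO and 6.45 and 7.15 in WT pools. In KO replicate 2 against KO replicate 1, all 11 cartilage genes were lower (median -0.49), as were all 6 tendon genes (-0.83) and 6 of 7 neuron and Schwann cell genes (-0.60). All 7 erythroid genes (0.50), all 6 distal limb genes (0.26) and all 7 proliferation genes (0.19) were higher. Smooth muscle genes were lower in 5 of 7 cases (-0.25). Heart genes (-0.13, 10 of 12 lower) and endothelial genes (-0.15, 6 of 7 lower) had medians nearer to 0. So did macrophage genes (-0.02, 4 of 7 lower) and proximal limb genes (-0.06, 4 of 7 lower). Of all 18193 genes, 9563 were lower and 8620 higher. The Y-linked Kdm5d, chosen after its values were seen, lay at 8.08 and 3.16 in KO and 8.70 and 7.52 in WT pools. Kdm5d lay at 6.62 to 7.85 on the arrays of 11.5 dpc. At 13.5 dpc it lay at 2.88 and 4.80 in KO and 5.55 and 3.02 in WT pools, so its level differed with stage as well. The part of these lists and genes, and of Hspa1a and Hspa1b, in the muscle difference was not tested.

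**Figure D5:**
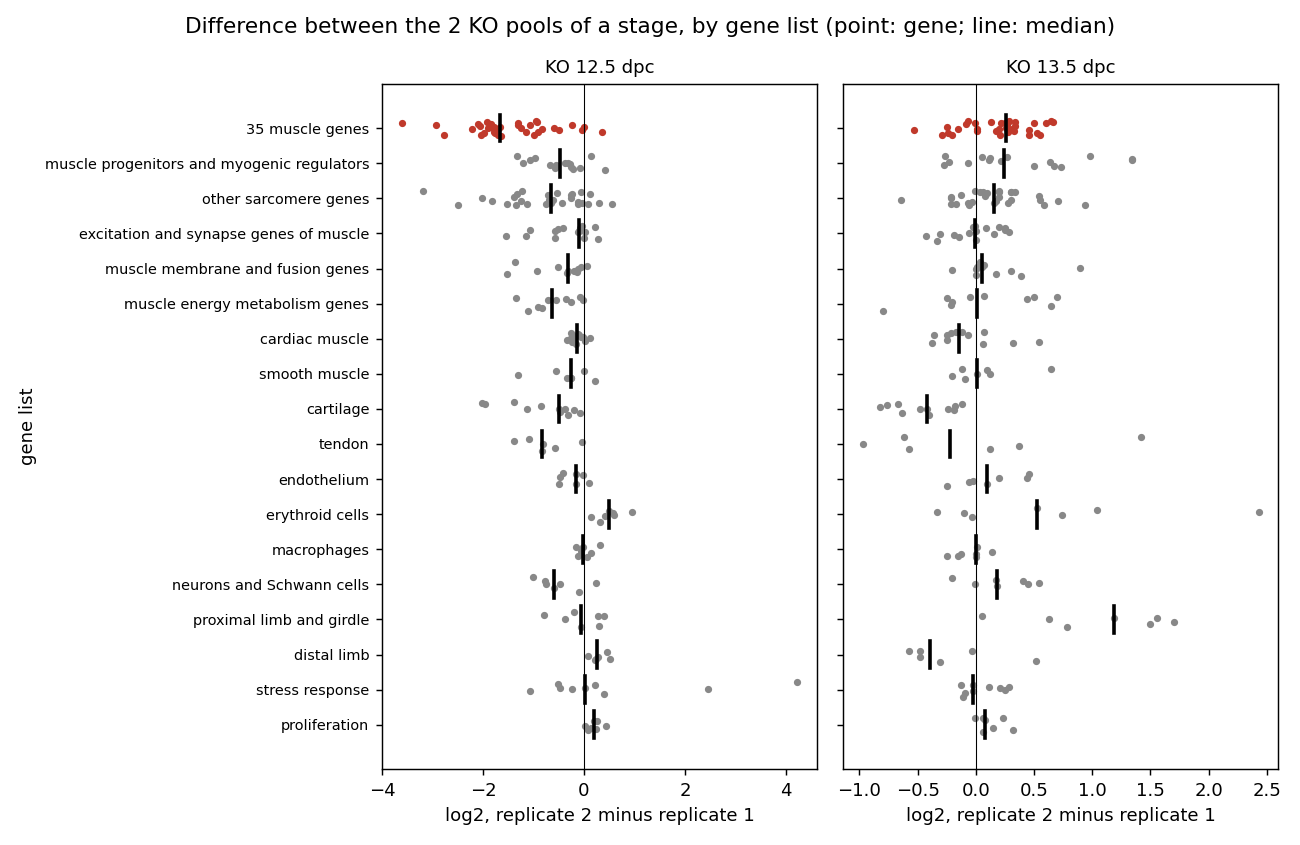
Log2 difference of KO replicate 2 minus KO replicate 1 for the genes of each list (points, with the median as a line) at 12.5 dpc (left) and 13.5 dpc (right). The 35 muscle genes, in red, have a median of -1.67 at 12.5 dpc and 0.26 at 13.5 dpc, where the proximal limb list stands out with a median of 1.19.

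At 13.5 dpc the KO pools differed less in the 35 genes and in the other direction. KO replicate 2 was higher than KO replicate 1 in 26 of the 35, at a median of 0.26, with extremes of -0.53 in Smyd1 and 0.66 in Cdh15. Against the WT mean the median of the 35 genes was -0.04 in KO replicate 1 and 0.13 in KO replicate 2. All 7 proximal limb genes were higher in KO replicate 2 (median 1.19). All 11 cartilage genes were lower there (-0.42), as were 5 of 6 distal limb genes (-0.39). Erythroid genes were higher in 4 of 7 cases (0.53). Of these, Hbb-bh1 differed most, at 10.48 and 12.91 in KO and 9.05 and 8.4 in WT pools. The part of these lists in the muscle values was not tested. For the myogenic regulators the KO minus WT median was 0.40, 0 of 16 passed (limma), and 9 had an unadjusted p under 0.05, as did 5.9% of all genes. Both KO arrays lay above both WT arrays for 7 of the 16 regulators and below them for 6, where 11.6% and 22.3% of all genes did so. The 4 genes with the largest differences follow. Myf5, an early determination factor, lay at 5.84 and 6.82 in KO and 5.33 and 5.36 in WT pools (0.98 ± 0.27, adjusted p = 0.544). Msc, a repressor of differentiation, lay at 7.86 and 9.20 in KO and 7.67 and 7.53 in WT pools (0.93 ± 0.38, adjusted p = 0.829). Myod1 lay at 9.30 and 9.94 in KO and 8.85 and 8.86 in WT pools (0.76 ± 0.21, adjusted p = 0.54), and Lbx1, of migrating progenitors, at 7.04 and 7.31 in KO and 6.5 and 6.42 in WT pools (0.72 ± 0.14, adjusted p = 0.253). In each of these 4 KO replicate 2, the pool with the intermediate Lmx1b value, was the higher of the KO pools.

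The counts of the other muscle lists stand beside the shares of all genes, 6.67% higher and 13.1% lower in WT limbs from 11.5 to 12.5 dpc. From 11.5 to 12.5 dpc 2 of 16 myogenic regulators rose, Mef2a (0.59) and the dim Myf6 (0.43), Lbx1 fell (-0.84), and the list median was -0.15. Of the further sarcomere genes 2 of 29 were called as rising, a share of calls near that of all genes: Lmod3 (1.24), of thin filament length, and Csrp3 (1.22), of the Z-disc. The median change of these 29 genes was 0.32, against -0.03 over all genes. Both WT arrays of 12.5 dpc lay above both of 11.5 dpc for 18 of the 29 (27.9% of all genes) and below them for 2 (37.5%). Of the excitation and synapse genes, 4 of 16 rose, Trdn (0.97), Cacng1 (0.72), Dok7 (0.50) and Jsrp1 (0.45). Of the membrane and fusion genes, 2 of 11 rose, Itga7 (0.71) and Sgcb (0.65), and of the energy genes 0 of 10 changed, 3 of them with an unadjusted p under 0.05, against 34.6% of all genes. From 12.5 to 13.5 dpc in WT pools, where 10.8% of all genes fell and 14.5% rose, 8 of 16 regulators fell, led by Myog (-1.90), Myf5 (-1.81), Msc (-1.29) and Myod1 (-1.15), and 3 rose, Gab1 (0.91), Cdon (0.55) and Mef2d (0.51). Over the same interval 8 of 29 further sarcomere genes fell, led by Lmod3 (-1.89), Synpo2l (-1.43), Csrp3 (-1.36) and Klhl41 (-1.33), and Mybpc3 rose (0.60). Of the excitation and synapse genes 6 of 16 fell, led by Trdn (-0.95), Stac3 (-0.71), Cacng1 (-0.59) and Musk (-0.48), and of the energy genes 2 of 10, Pgam2 (-0.81) and Ckb (-0.72). The fusion genes Mymx (-1.91) and Mymk (-1.07) fell too, with Sgcb (-0.64) and Itga7 (-0.57).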

How the data were processed

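RNA of 12 limb pools was read on 1-colour Affymetrix arrays. The authors deposited log2 values for 45101 probe sets. RMA is the tool that the submitters' processing notes name, without a version. It subtracts background, brings arrays to a common distribution and combines the probes of a set, which compresses differences of dim probe sets. From there, control probe sets (64) were left out, names came from the platform annotation (34945 probe sets naming 1 gene), and 1 probe set, the brightest on average, stood for each of 18193 genes. Group means were fitted by lmFit and eBayes (limma 3.58.1, R 4.3.3, 6 residual and 4.22 prior degrees of freedom), two-sided, with Benjamini-Hochberg adjustment over all genes and a threshold of 0.05. The fit was tested on simulated data with 1 spread per gene shared by all groups, so unequal spread between groups was not covered. With 2 arrays a group, their number limits the precision. Each gene has 1 estimate of the spread between pools, taken over all 6 groups. The SE and p-value of every comparison therefore include the gap between the 2 KO pools of 12.5 dpc. Over the members the root mean square of that gap was 1.676, against 0.193 to 0.345 in the other 5 groups. Alternatives changed the probe set rule, the filter on dim genes, normalization, variance model, array weights, replicate block and the arrays used. The members and lists were chosen with earlier results of these data known. All members are accounted for, with array values for about 4 in each role with the largest WT change. From each other list up to 4 genes a comparison were named, those with the largest change among genes past the threshold, or among all where none passed. Myog and Pax7 at 12.5 dpc, Myom2, Hspa1a and Hspa1b were chosen after their values were seen. Some entries of the other lists are not reported here. Some genes of the heart list also stand among the further sarcomere genes.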

Additional observations from a re-analysis of the deposited data

How the results depend on the processing

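For KO minus WT, the count of 0 members stayed 0 at 11.5 and 13.5 dpc under the alternatives run and moved at 12.5 dpc and for the mean of the stages: it was 1 (Neb) at 12.5 dpc without both KO replicate 2 arrays of 12.5 and 13.5 dpc, 0 to 22 at 12.5 dpc over the fits that left out 1 array each, and 0 to 15 for the mean. In the same fits the change of the KO effect gave 0 to 4 members from 11.5 to 12.5 dpc and 0 to 6 from 12.5 to 13.5 dpc, where leaving out both KO replicate 2 arrays gave 1. The median KO minus WT difference at 12.5 dpc was -1.06 without KO replicate 1 and 0.44 without KO replicate 2. The calls between genotypes at 12.5 dpc went opposite ways as well. Neb was higher in KO limbs (1.03), whereas the members called without KO replicate 1 were all lower. The counts of stage changes moved most. From 11.5 to 12.5 dpc in KO limbs (5 members) they were 2 with an intensity trend and robust prior, 8 with array weights, 0 from the compared arrays alone, 30 without both KO replicate 2 arrays, and 0 to 30 without 1 array. In WT limbs (15) they were 6, 29, 27, 31 and 1 to 30 in the same order. From 12.5 to 13.5 dpc in KO pools (4) they were 0 from the compared arrays alone, 31 without both arrays and 1 to 30 without 1. In WT pools (21) they were 11 with the trend, 32 from the compared arrays alone, 33 without both arrays and 3 to 33 without 1. Fewer samples or another spread in the fit are part of these alternatives, and no further cause was tested. For stage changes and for the change of the KO effect, the shares of all genes called under the alternatives are not given. Those counts are therefore not read as particular to the members. Calls that held under all 21 alternatives were those of Ttn for both WT changes and of Actc1 and Tnnt2 for the later one. Myl4 from 12.5 to 13.5 dpc in KO pools reversed to 0.84 (adjusted p = 0.0238) without KO 12.5 dpc replicate 1, within a range of -2.10 to 0.84 without 1 array, and Cdh15 to -0.55 (adjusted p = 0.013) without both KO replicate 2 arrays. With the replicate block the KO count from 11.5 to 12.5 dpc was 3, and no other count moved by over 1.5 times. The labels give no meaning to shared replicate numbers. The difference of replicate 1 minus replicate 2 was compared between KO and WT pools across all genes. These differences correlated at 0.19, -0.12 and -0.09 at 11.5, 12.5 and 13.5 dpc, so the numbers were not taken as pairs. Leaving out dim genes removed Xirp1 and Ckm from the test.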
